A study of Saccharomyces cerevisiae with 26 samples.

Results

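The genes described here encode the proteins of the large (60S) subunit of the cytosolic yeast ribosome and its lateral stalk. They were picked by symbol, as RPL followed by a number or RPP followed by 0, 1 or 2, each with or without the letter A or B of a gene copy. The pattern matched 82 of the 7036 genes in the count table. One of them, RPP1 (YHR062C), is a subunit of the RNA-processing enzymes RNase P and RNase MRP, not a ribosomal protein, and was left out of every count and median, which left 81 genes. Of these, 11 had a single copy and 70 formed 35 pairs of A and B copies, and 53 had an intron in the coding sequence.

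Growing budding yeast spends a large share of its transcription and translation on ribosomal protein mRNAs. Most ribosomal protein genes were kept in duplicate after an ancient genome duplication, so that one protein, or a nearly identical pair of proteins, is made from 2 loci. The large subunit holds the peptidyl transferase centre and the exit tunnel of the growing chain. Its stalk, built on P0 with the acidic proteins P1 and P2, recruits the translational GTPases that drive each elongation cycle. The factor Rap1 binds upstream of most of these genes and, with Fhl1 and Ifh1, keeps their transcription in step with growth.

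The study asked how loss of Gir2, a protein that binds the GTPase Rbg2 and the Gcn1 protein, changes translation, and gave data on loss of Pub1, a poly(A)+ RNA-binding protein, beside it. For RNA-Seq of oligo(dT)-selected mRNA there were 5 libraries from wild type (wt), 4 from gir2Δ and 5 from pub1Δ. For Ribo-Seq, in which RNase I trims mRNA to the fragments held inside ribosomes, each strain had 4. All were BY4742 (MATα his3Δ1 leu2Δ0 lys2Δ0 ura3Δ0), grown in YPD to exponential phase, with cycloheximide in the lysis buffer but not in the medium. In gir2Δ and pub1Δ the gene was replaced by a KanMX cassette, whose drug resistance marker the wt strain does not carry, and the sources do not state whether several clones of a deletion were used. Nothing in the labels says that replicates were separate cultures, so p-values measure the spread between these samples, which may be technical.

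The samples fell into 4 batches. Batch 1 held all 3 strains, batch 4 held wt and, in RNA-Seq, 1 pub1Δ library, batch 2 held gir2Δ alone and batch 3 pub1Δ alone. With batch in the model the gir2Δ change therefore rests on replicate 4 of each assay. The pub1Δ change rests on RNA-Seq replicates 4 and 5 and on Ribo-Seq replicate 4.

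Gene-sense counts per library ran from 2217490 to 3896827 in RNA-Seq and from 540986 to 3123180 in Ribo-Seq. The least counted of the 81 genes had 34 to 293 counts per library. Reads that mapped to several places were not counted, and made up 6.23 to 12.3% of the reads in RNA-Seq and 41 to 61.2% in Ribo-Seq. GIR2 had 1 to 16 counts in gir2Δ RNA-Seq libraries against 375 to 504 in wt, and PUB1 1 to 47 in pub1Δ against 639 to 1013. The 16 and the 47 were each in replicate 4 of the strain, among the libraries on which the fitted changes rest. The 4 α-mating genes checked had 61.6 to 2522 CPM (counts after every library is brought to the same total) in RNA-Seq and the 4 a-mating genes 0 to 6.5, as fits the MATα label. One pub1Δ RNA-Seq library (replicate 1) had a genotype label naming gir2, but its title said pub1Δ and it held 894 GIR2 and 1 PUB1 counts, so it was kept as pub1Δ.

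Copies of a pair are often almost the same sequence, and this sets which reads could be counted. The sequences below are those in which the problem can be read directly. All are from the RefSeq R64 genome, 5′ to 3′ on the coding strand. The whole coding sequences of RPL41A (chrIV:130407-130484, minus strand) and RPL41B (chrIV:221724-221801, minus strand), which encode the smallest protein of the ribosome, differ at 1 of 78 bases, shown in capitals:
RPL41A: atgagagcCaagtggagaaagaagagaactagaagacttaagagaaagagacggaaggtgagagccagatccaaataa
RPL41B: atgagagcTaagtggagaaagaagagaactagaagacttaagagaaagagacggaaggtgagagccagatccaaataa
The first 90 coding bases of RPL1A (chrXVI:135790-135879, plus strand) and RPL1B (chrVII:254641-254730, plus strand), which encode the protein of the mobile L1 stalk at the exit site, hold 2 of the 4 differences over 654 bases, again in capitals:
RPL1A: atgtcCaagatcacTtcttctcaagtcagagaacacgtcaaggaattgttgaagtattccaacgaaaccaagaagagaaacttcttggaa
RPL1B: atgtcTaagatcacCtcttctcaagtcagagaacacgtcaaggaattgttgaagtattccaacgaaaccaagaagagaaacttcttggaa

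Counted from 1 at the first coding base, with the A copy's base first, RPL41 differs by C9T and RPL1 by C6T, T15C, T171C and T339C. RPL35 differs by T9C, G51A and T354C. A footprint-sized read that spans none of these bases fits both copies and was lost from the counts of both. The longest run shared by the copies was 69 bases in RPL41, 302 in RPL35, 315 in RPL1 and 422 in RPL4.

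The share of 28-base windows of a coding sequence (about the length of a footprint) that occur once in the genome was used as a measure of this loss. Its median over the 81 genes was 80.1%, and 11 genes were at 100%. It was under 50% in 16 of the 81 (19.8%), against 215 of 5917 protein-coding genes (3.63%). The 16 were both copies of RPL1 (11.3%), RPL35 (13.7%), RPL4 (17.1%), RPL41 (17.6%), RPL11 (32.5%), RPL42 (33%), RPL7 (33.5%) and RPL14 (47.9%). The stalk genes were far less affected: RPP0 and RPP1A were at 100%, RPP2B at 99.0%, RPP1B at 93.2% and RPP2A at 92.9%.

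The last 60 coding bases of the 5 stalk genes are shown because they encode the shared acidic tail through which P0, P1 and P2 touch the translational GTPases. Capitals mark the 41 columns in which all 5 genes carry the same base. The stretches are from chrXII:806766-806825 (plus strand) for RPP0, chrIV:309802-309861 (minus) for RPP1A, chrIV:230468-230527 (plus) for RPP1B, chrXV:254558-254617 (plus) for RPP2A and chrIV:1239765-1239824 (plus) for RPP2B:
RPP0: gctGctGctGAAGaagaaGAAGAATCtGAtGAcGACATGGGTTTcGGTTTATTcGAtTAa
RPP1A: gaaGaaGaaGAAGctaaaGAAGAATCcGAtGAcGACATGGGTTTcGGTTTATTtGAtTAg
RPP1B: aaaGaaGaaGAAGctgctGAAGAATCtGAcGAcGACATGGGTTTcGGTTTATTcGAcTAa
RPP2A: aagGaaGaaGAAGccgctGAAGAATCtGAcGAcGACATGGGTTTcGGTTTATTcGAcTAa
RPP2B: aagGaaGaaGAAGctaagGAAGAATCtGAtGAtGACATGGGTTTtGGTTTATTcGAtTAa

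Upstream of the genes, in the 500 bases before the start codon, the Rap1 motif ACCCNNACA on either strand was found in 36 of the 81 genes (44.4%), in 18 of 56 small subunit genes (32.1%) and in 324 of 5915 protein-coding genes (5.48%). The 6-base motif GACGCA, linked to Fhl1, was found in 18.5% of the 81, 10.7% of small subunit genes and 10.3% of all. Among the genes that recur below, RPP1B, RPL12B and RPL41B each had 1 Rap1 match, and RPP0, RPP1A, RPP2A, RPP2B, RPL12A and RPL41A had 0. The matches are shown with the motif, or its reverse complement, in capitals, from chrIV:229612-229660 (plus strand), chrIV:1301116-1301155 (plus) and chrIV:222117-222165 (minus):
RPP1B: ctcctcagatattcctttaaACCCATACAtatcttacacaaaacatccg
RPL12B: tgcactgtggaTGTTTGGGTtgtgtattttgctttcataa
RPL41B: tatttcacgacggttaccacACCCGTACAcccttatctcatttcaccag

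The 81 genes made up 13.6 to 19.2% of the gene-sense counts in RNA-Seq libraries. In the order of the replicates the share was 14.0, 15.1, 16.4, 13.6 and 13.9% in wt, 15.6, 14.8, 15.3 and 16.6% in gir2Δ, and 19.2, 17.4, 16.1, 15.1 and 14.1% in pub1Δ. The strains overlapped, and the highest pub1Δ values were the 3 libraries of batch 3. In Ribo-Seq the share was 12.8, 13.3, 13.2 and 13.0% in wt, 13.0, 13.1, 13.3 and 12.8% in gir2Δ, and 12.4, 12.4, 12.1 and 12.3% in pub1Δ. Each pub1Δ Ribo-Seq library was below each library of the other strains, including the pub1Δ library of batch 1. The 56 small subunit genes made up 8.49 to 9.15% in pub1Δ Ribo-Seq and 8.92 to 9.79% in wt, which overlapped. These are shares of the counted mRNA, so that fewer cells and less RNA per cell, or a change in all mRNAs together, cannot be told apart.

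**Figure D1:**
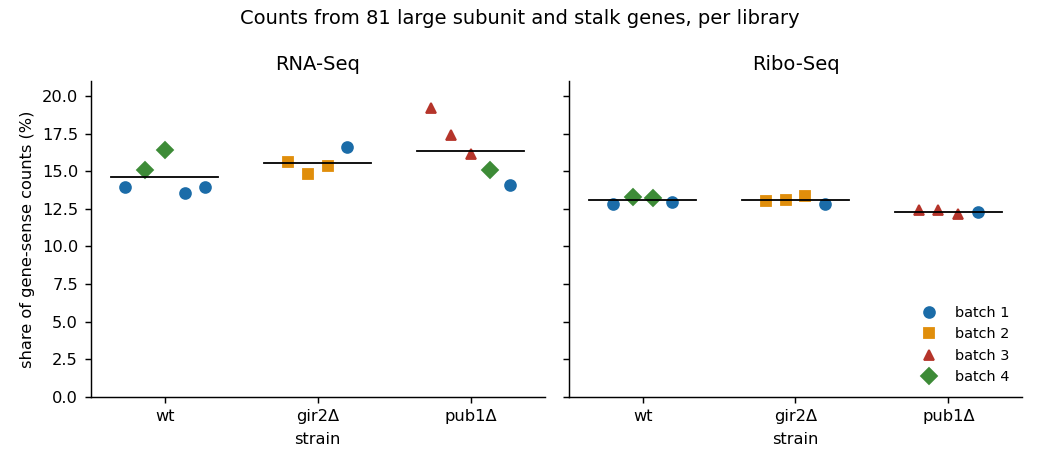
Share of gene-sense counts (%, vertical axis from 0) taken by the 81 large subunit and stalk genes, in RNA-Seq on the left and Ribo-Seq on the right, by strain. Each point is 1 library, its colour and shape give the batch, and the line is the group mean. RNA-Seq shares ran from 13.6 to 19.2%, and all pub1Δ Ribo-Seq libraries lay between 12.1 and 12.4%, below the 12.8 to 13.3% of the other libraries.

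In wt the genes were among the most abundant messages. Levels were set per length as CPM, normalised within each assay, per kilobase (kb) of coding sequence. The median of the 81 was 3781 CPM per kb in RNA-Seq and 3319 in Ribo-Seq, against 57.0 and 36.3 for the median tested gene. Of the 100 highest genes, 46 in RNA-Seq and 45 in Ribo-Seq were from this list, and 34 and 32 encoded small subunit proteins. The lowest of the 81 still lay at percentile 67.7 of tested genes in RNA-Seq and at percentile 74.2 in Ribo-Seq.

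Between the 81 genes the level ranged 89.1-fold in RNA-Seq and 102-fold in Ribo-Seq, with an SD of 1.16 and 1.34 on the log2 scale. The spread of each value over the wt libraries was far smaller, with a median coefficient of variation of 15.4% in RNA-Seq (n = 5) and 5.24% in Ribo-Seq (n = 4). That spread does not include reads lost to the other copy. Per unique window the SD between genes was 1.03 in RNA-Seq and 1.09 in Ribo-Seq. The least abundant was RPL15B, the minor copy of a core rRNA-binding protein gene, at 102 ± 8.24 CPM per kb in RNA-Seq and 104 ± 11.5 in Ribo-Seq (SD). RPL7B followed in both assays at 253 and 197 CPM per kb. RPL22B, the next in RNA-Seq, was at 498 and 403, with RPL4B (298) and RPL1A (345) below it in Ribo-Seq. RPL4B and RPL1A are at 17.1 and 11.3% unique windows, so their low values include lost reads.

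The 11 single-copy genes, which stand for 1 protein each and lose no reads to a partner, were much more even. Their RNA-Seq levels had a median of 6287 CPM per kb, a range of 3197 to 9063 and an SD of 0.46 on the log2 scale. In Ribo-Seq the median was 7612, the range 5724 to 10614 and the SD 0.27. The highest in RNA-Seq were RPL32 (9063 ± 1242 CPM per kb), RPL30 (8255 ± 802), whose protein represses the splicing of its own transcript, and RPL10 (7830 ± 1127), which joins the subunit last and completes the site where tRNAs are accommodated. The lowest were RPL29 (3197 ± 1216), RPL39 (4577 ± 1569), which lines the exit tunnel, and RPL5 (4620 ± 1032), which carries 5S rRNA. RPL29 and RPL39, 180 and 156 coding bases long, were not low in Ribo-Seq, at 7945 ± 301 and 10614 ± 864 CPM per kb.

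The 70 genes of pairs had a median of 3446 CPM per kb in RNA-Seq and 2961 in Ribo-Seq. When the copies of a pair were added, the median sum was 7237 and 6322, near the single-copy medians. The sum still missed the reads that fit both copies. In the 9 pairs whose copies were both at 90% or more unique windows, the median sum was 8309 in RNA-Seq and 7912 in Ribo-Seq.

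Levels per coding length followed the share of unique windows. The 16 genes under 50% had a median of 1247 CPM per kb in RNA-Seq and 1127 in Ribo-Seq. The 36 genes from 50 to under 90% had 3755 and 3198, and the 29 genes at 90% or more had 5446 and 5724. When the counts were divided by the number of unique windows in place of the coding length, the medians of the same 3 classes became 7072, 5107 and 5879 in RNA-Seq and 4366, 4431 and 6068 in Ribo-Seq. Across the 81 genes Pearson's r between log2 level and unique share was 0.54 in RNA-Seq and 0.64 in Ribo-Seq per coding length, and -0.20 and 0.031 per unique window. The rank correlations were 0.58 and 0.69 per coding length, and -0.13 and 0.31 per unique window. These are descriptions across genes, which share their libraries and, within pairs, their sequence. RNA-Seq reads may have been longer than footprints, and a longer read is unique more often, so that 28-base windows overstate the loss in RNA-Seq by an amount not given in the sources used here.

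Ribosome occupancy, the log2 ratio of the normalised Ribo-Seq to the RNA-Seq value of the same lysate, had a median of -0.18 over the 81 genes in wt, -0.19 over small subunit genes and -0.63 over all tested genes. Of the 81, 21 were above 0 and 60 below, with an SD between genes of 0.71 and a median SD over the 4 wt lysates of 0.22. The highest were RPL41B (2.58 ± 1.39) and RPL41A (2.49 ± 1.15), then RPL29 (1.57 ± 0.40), RPL39 (1.43 ± 0.34) and RPL38 (0.74 ± 0.19). The 4 highest are the 4 shortest genes of the list, at 78 to 180 coding bases. Over the 81 genes Pearson's r with log2 coding length was -0.59 and the rank correlation -0.18.

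The 6 lowest occupancies belonged to pairs under 50% unique windows, RPL1B (-1.88) and RPL1A (-1.71), RPL4A (-1.74) and RPL4B (-1.59), and RPL42A (-1.68) and RPL42B (-1.33). RPL35A (-0.82) and RPL35B (-0.88), with fewer unique windows than RPL4, were above RPL18B (-0.97) and RPL24B (-0.91), which are at 66.5 and 80% unique windows. Without RPL41, the median was -0.85 for the 14 genes under 50% unique windows, -0.27 for the 36 from 50 to under 90% and -0.07 for the 29 at 90% or more. The rank correlation with unique share was 0.58 over these 79 genes and 0.49 over all 81, and Pearson's r was 0.67 and 0.30. The part of read length and of read loss in these occupancies was not tested.

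**Figure D2:**
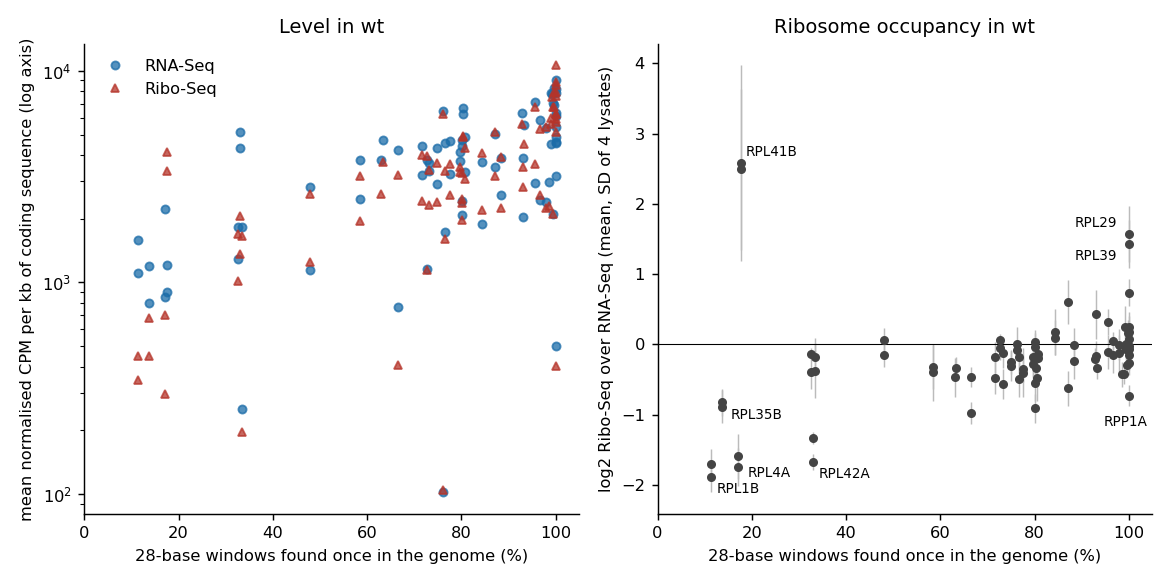
Left, mean level in wt (normalised CPM per kb of coding sequence, log axis) of the 81 genes in RNA-Seq (circles) and Ribo-Seq (triangles) against the share of 28-base windows found once in the genome (%). Right, ribosome occupancy in wt (log2, mean and SD of 4 lysates) against the same share. Genes under 50% had a median of 1247 CPM per kb in RNA-Seq against 5446 at 90% or more, and their occupancy reached down to -1.88, with RPL41A and RPL41B apart at 2.49 and 2.58.

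The stalk genes were at 5524 to 8166 CPM per kb in RNA-Seq and 4521 to 6283 in Ribo-Seq, above RPL12A and RPL12B of the stalk base. RPP0, the scaffold on which the stalk is built, was at 6119 ± 1225 CPM per kb in RNA-Seq and 6283 ± 78.4 in Ribo-Seq (SD, n = 5 and 4). The P1 genes were at 8166 ± 1475 and 5141 ± 343 for RPP1A and at 5524 ± 844 and 4521 ± 447 for RPP1B. The P2 genes were at 6304 ± 988 and 5628 ± 445 for RPP2A and at 7895 ± 925 and 5955 ± 353 for RPP2B. Each of these 4 genes alone was thus near the level of the single RPP0 gene, and a ribosome carries more than 1 copy of P1 and P2 but 1 of P0. RPL12A and RPL12B, whose protein sits at the stalk base beside P0, were at 3326 ± 408 and 4867 ± 539 CPM per kb in RNA-Seq and at 3095 ± 170 and 4329 ± 353 in Ribo-Seq.

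Occupancy in wt was -0.02 for RPP0, -0.73 for RPP1A, -0.33 for RPP1B, -0.21 for RPP2A and -0.42 for RPP2B. RPP1A was the lowest of the 29 genes at 90% or more unique windows. The 3 genes of the 5S particle, RPL5, RPL11A and RPL11B, had a median of 1828 CPM per kb in RNA-Seq and the 5 genes around the peptidyl transferase centre (RPL2A, RPL2B, RPL3, RPL10 and RPL28) 6287. The 14 genes of the exit tunnel wall and rim had 2909, and the 2 genes that make RPL40 as a fusion with ubiquitin 4254. RPL11, at 32.5% unique windows, and RPL4 and RPL35, at 17.1 and 13.7%, are counted in these medians.

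Copies of a pair were used unequally, and in the same direction in both assays. The log2 ratio of A to B per unique window was above 0 in 21 of 35 pairs in wt RNA-Seq and in 23 in wt Ribo-Seq. The higher copy was the same in both assays in 33 pairs, and the sign was the same in all 26 libraries in 26 pairs. In RNA-Seq the copies differed more than 2-fold in 14 pairs and less than 1.5-fold in 17. Across the 35 pairs the ratios of the 2 assays had an r of 0.97.

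The most unequal pairs were RPL15 (5.99 ± 0.12 in RNA-Seq and 5.91 ± 0.17 in Ribo-Seq, or 63.4-fold and 60.1-fold), RPL22 (3.45 ± 0.23 and 3.96 ± 0.13), RPL7 (2.85 ± 0.09 and 3.07 ± 0.12), RPL18 (2.46 ± 0.08 and 2.99 ± 0.12) and RPL31 (1.73 ± 0.07 and 1.69 ± 0.09). All 5 favoured the A copy. The most even were RPL24 (0.10 ± 0.03 in RNA-Seq), RPL21 (0.11 ± 0.05) and RPL20 (0.14 ± 0.11). Of the 8 pairs under 50% unique windows, RPL7, RPL4 (1.40 ± 0.08) and RPL14 (1.32 ± 0.13) favoured A by more than 2-fold. RPL35 (0.58 ± 0.13), RPL11 (0.51 ± 0.11) and RPL41 (0.41 ± 0.30) favoured A by less, and RPL1 (-0.52 ± 0.08) and RPL42 (-0.25 ± 0.05) favoured B.

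The copies of RPL37, a zinc-binding protein buried in rRNA, were ordered in opposite ways by the assays. Copy A was lower in each of the 14 RNA-Seq libraries, with ratios of -0.85 to -0.40, and higher in each of the 12 Ribo-Seq libraries, with ratios of 0.59 to 1.07. In wt, RPL37A was at 912, 910, 1033, 764 and 1072 normalised CPM in RNA-Seq and RPL37B at 1354, 1276, 1492, 1152 and 1456. In Ribo-Seq RPL37A was at 1463, 1299, 1205 and 1499 and RPL37B at 880, 862, 763 and 901. The values of the copies did not overlap in either assay. Both copies are at 87.1% unique windows and 267 coding bases.

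Taking the Ribo-Seq minus the RNA-Seq ratio within each of the 12 lysates, the difference had one sign throughout in 15 of 35 pairs, and in 6 of the 9 pairs at 90% or more unique windows. It was 1.08 to 1.85 (median 1.40) in RPL37, -1.09 to -0.43 (-0.80) in RPL6 and -0.88 to -0.49 (-0.71) in RPL16. Both stalk pairs belonged to the 15, with -0.72 to -0.21 (-0.41) in RPP1 and 0.17 to 0.51 (0.31) in RPP2. In P1 the A copy thus had the higher RNA level and the lower occupancy in every lysate. In P2 the B copy did. These differences were not put to a test across genes.

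**Figure D3:**
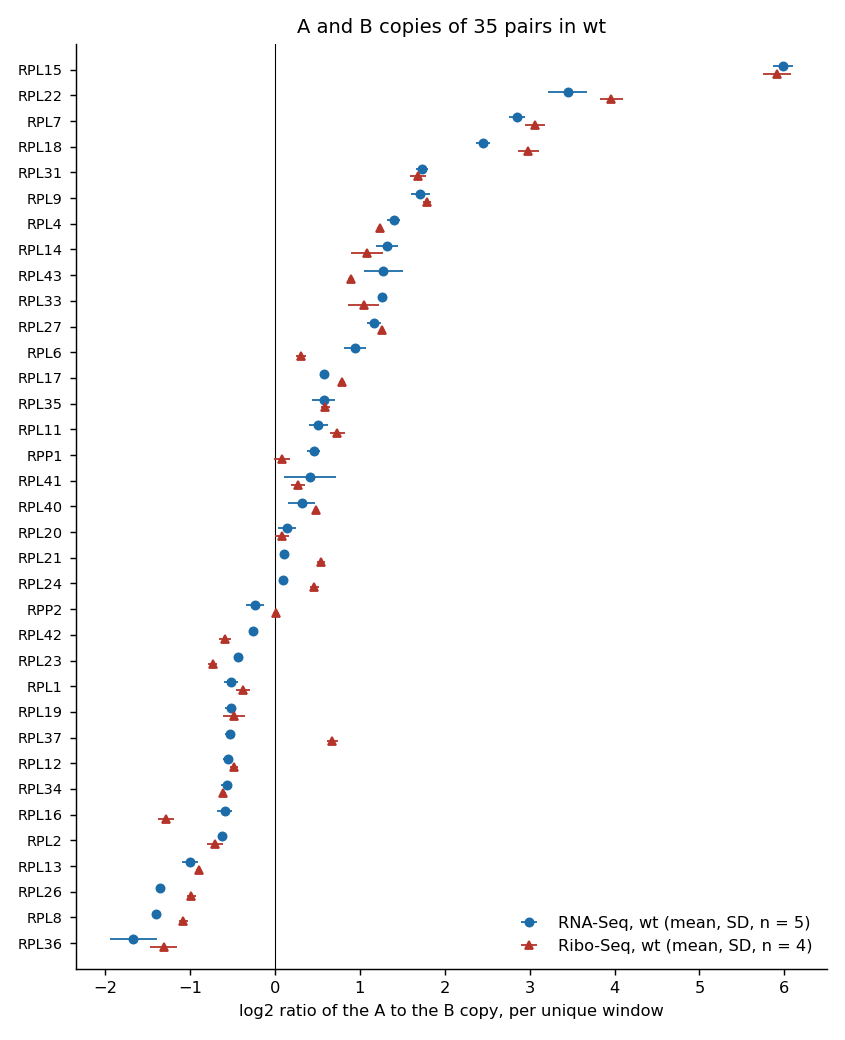
Log2 ratio of the A to the B copy per unique window (horizontal axis) for 35 pairs in wt, ordered by the RNA-Seq value. Circles are RNA-Seq (n = 5) and triangles Ribo-Seq (n = 4), with bars for the SD. The ratio runs from 5.99 in RPL15 to below -1 at the bottom, and RPL37 has RNA-Seq at -0.52 and Ribo-Seq at 0.68.

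The median absolute difference of the ratios from wt was 0.076 in RNA-Seq of each strain, 0.087 in gir2Δ Ribo-Seq and 0.11 in pub1Δ Ribo-Seq. In all 4 comparisons RPL7 had the largest, at -0.36 and -0.37 in gir2Δ and pub1Δ RNA-Seq and at -0.41 and -0.34 in Ribo-Seq, and its ratios in both strains lay below all wt libraries. The ratio lay outside the wt range in every library of the strain in 8 of 35 pairs in gir2Δ RNA-Seq, 2 in pub1Δ RNA-Seq, 5 in gir2Δ Ribo-Seq and 10 in pub1Δ Ribo-Seq, with no test and no share over other genes to set beside these counts. Both strains were set against the same wt libraries, and RPL7 is at 33.5% unique windows.

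The strain comparisons asked which of the genes changed in level or occupancy. Differences were tested with edgeR over 4473 genes, all 81 among them. The Benjamini-Hochberg method was used, and calls were made where the adjusted p was below 0.05. Batch was a term of the model, in place of the ComBat-seq correction that the authors used, whose calls are given in the closing section. In gir2Δ none of the 81 was called in RNA-Seq (0.0671% of tested genes were), in Ribo-Seq (0.0224%) or in occupancy (0%). None was called in pub1Δ RNA-Seq (0.0447%), Ribo-Seq (0.134%) or occupancy (0%). DESeq2 called 2 in gir2Δ RNA-Seq, RPP1A and RPP2B (it called 0.469% of tested genes), and none in the other comparisons.

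In gir2Δ RNA-Seq 74 of the 81 genes had a fitted log2 change above 0, with a median of 0.32 against -0.0027 for all tested genes and 0.29 for small subunit genes. At an unadjusted p under 0.05 there were 40, all higher, where 7.11% of tested genes were higher and 6.84% lower. The largest fitted values were those of RPP1A (0.69, SE 0.17), RPL42B (0.68, SE 0.17) and RPP2B (0.63, SE 0.16), each with an adjusted p of 0.161 in edgeR's quasi-likelihood test. All 7 genes of the stalk and its base were above 0, from 0.26 in RPL12B to 0.69 in RPP1A. The lowest were RPL41A (-0.99, SE 0.86), RPL41B (-0.49, SE 0.85) and RPL29 (-0.07, SE 0.42), whose standard errors were the widest of the named genes.

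The libraries behind that estimate showed 1 high library. RPP1A was at 2326, 2765, 3320, 2623 and 2073 normalised CPM in wt RNA-Seq and at 2838, 2853, 3059 and 3824 in gir2Δ. RPP2B was at 2435, 2565, 3173, 2482 and 2490 in wt and at 3125, 2891, 3128 and 3906 in gir2Δ. In both genes gir2Δ replicate 4, of batch 1, was the highest, and the gir2Δ libraries of batch 2 overlapped wt. In gir2Δ replicate 4, 70 of the 81 genes (86.4%) were above the 3 wt libraries of the same batch, against 31.3% of tested genes, with a median difference of 0.35. Over all wt libraries the medians of the 4 gir2Δ libraries were 0.13, 0.03, 0.04 and 0.24. Only RPL15B lay above the whole wt range in all 4 gir2Δ libraries (2.3% of tested genes did) and none lay below (3.11%).

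Fitted changes of the footprints of the same genes were centred near 0. In gir2Δ Ribo-Seq the median change was -0.016 and 34 of 81 were above 0. Unadjusted p was under 0.05 for 3 higher genes (background 3.64%) and 5 lower ones (4.78%). The largest were RPL8A (0.40, SE 0.10, adjusted p = 0.370 in edgeR), RPL14B (0.34) and RPL18B (0.29), and the lowest RPL41A (-0.53, SE 0.25), RPL35B (-0.46, SE 0.22) and RPL41B (-0.37, SE 0.21). Every gir2Δ library lay above the wt range in 7 genes (8.64%, against 2.79% of tested genes), which were RPL4B, RPL7B, RPL8A, RPL13A, RPL22B, RPL24B and RPL43B. It lay below in 4 (4.94% against 3.73%), which were RPL29, RPL35B, RPL41A and RPL41B.

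Fitted occupancy changes in gir2Δ were mostly below 0, with a median of -0.34 (all tested genes -0.0020) and 6 of 81 genes above 0. The small subunit genes were alike, with a median of -0.32 and 5 of 56 above 0. Unadjusted p was under 0.05 for 27 genes, all lower (4.36% of tested genes were lower and 3.24% higher). The largest fitted decreases were those of RPL35B (-0.98, SE 0.29), RPP1A (-0.85, SE 0.23) and RPL42B (-0.85, SE 0.24), with adjusted p of 0.338, 0.300 and 0.338 in edgeR. RPL41A (0.48, SE 1.06), RPL18B (0.34, SE 0.24) and RPL9B (0.13, SE 0.18) had the highest values. With libraries of one lysate paired in the fit (a replicate block), 2 genes were called lower, RPL35B and RPL42B (0.246% of tested genes were called in this fit). The stalk and its base had a median of -0.59, with none of the 7 above 0.

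Occupancy of RPL35B, which encodes a protein at the rim of the exit tunnel, was -0.84, -0.58, -0.99 and -1.13 in the wt lysates, -1.70, -1.82, -1.63 and -1.99 in gir2Δ and -1.02, -1.19, -1.17 and -1.02 in pub1Δ. Occupancy of RPL42B, which encodes a protein near the tRNA exit site, was -1.30, -1.24, -1.44 and -1.33 in wt and -1.78, -1.60, -1.64 and -2.23 in gir2Δ. In pub1Δ it was -2.49, -2.17, -2.0 and -1.60. In both genes gir2Δ lay below all wt lysates, also in batch 1. In RPL42B the pub1Δ lysates did so too, and overlapped gir2Δ. They are at 13.7 and 33% unique windows. RPP1A, at 100%, was at -0.54, -0.70, -0.90 and -0.78 in wt and at -0.85, -0.74, -0.91 and -1.48 in gir2Δ, where the groups overlapped and the lysate of batch 1 was the lowest.

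In pub1Δ the fitted footprint change was small and below 0 in most genes. The median fitted change in Ribo-Seq was -0.15 (all tested genes -0.024, small subunit genes -0.13), and 7 of 81 genes were above 0. Unadjusted p was under 0.05 for 15 lower genes (5.19% of tested genes) and 2 higher (2.73%). The lowest were RPL4A (-0.33, SE 0.17), RPL1B (-0.32, SE 0.17) and RPL37B (-0.30, SE 0.14), with an adjusted p of 0.611 to 0.701 in edgeR, and the highest RPL41A (0.71, SE 0.22, adjusted p = 0.366), RPL41B (0.47, SE 0.18) and RPL14B (0.22, SE 0.15).

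Every pub1Δ Ribo-Seq library lay below the wt range in 26 of the 81 genes (32.1%), against 2.37% of tested genes, and above it in none (1.74%). Of the single-copy genes RPL3, RPL10, RPL28, RPL29, RPL30 and RPP0 were among the 26. RPP0 was at 5861, 5949, 5972 and 5815 normalised CPM in wt and at 5555, 5689, 5340 and 5198 in pub1Δ. RPP1A, RPP1B, RPP2A and RPP2B overlapped wt. Of the 56 small subunit genes, 14 lay below. In the pub1Δ library of batch 1 alone, 69 of 81 genes (85.2%) were below the 2 wt libraries of that batch, against 39.7% of tested genes. Its median was -0.15. The pub1Δ libraries of batch 3 were the shallowest of the Ribo-Seq set, at 540986 to 986174 counts, and that of batch 1 the deepest.

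With batch in the model, the fitted RNA changes in pub1Δ were closer to 0. The median was -0.098, 19 of 81 were above 0, and at an unadjusted p under 0.05 there were 2, both lower, RPL5 (-0.32, SE 0.12) and RPL8A (-0.26, SE 0.11), where 4.07% of tested genes were lower and 5.32% higher. RPL4A (-0.24, SE 0.13) was next. RPL41B (0.73, SE 0.64), RPL41A (0.43, SE 0.62) and RPL29 (0.35, SE 0.31) had the highest values. No gene lay outside the wt range in all pub1Δ libraries (background 2.97% above and 1.23% below). Replicate 4 had 59 of 81 genes (72.8%) below the 2 wt libraries of batch 4, against 33.8% of tested genes, with a median of -0.17, whereas replicate 5 had a median of -0.02 against the 3 wt libraries of batch 1. The 3 libraries of batch 3, with no wt library beside them, had medians of 0.61, 0.37 and 0.16 over all wt libraries.

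Occupancy in pub1Δ had a median of -0.025, with 29 of 81 above 0 and none at an unadjusted p under 0.05 (1.95% of tested genes were higher and 1.81% lower). RPL14B (0.31, SE 0.22), RPL41A (0.30, SE 0.88) and RPL5 (0.25, SE 0.19) were the highest, and RPL29 (-0.47, SE 0.47), RPL37B (-0.35, SE 0.24) and RPL39 (-0.32, SE 0.43) the lowest.

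**Figure D4:**
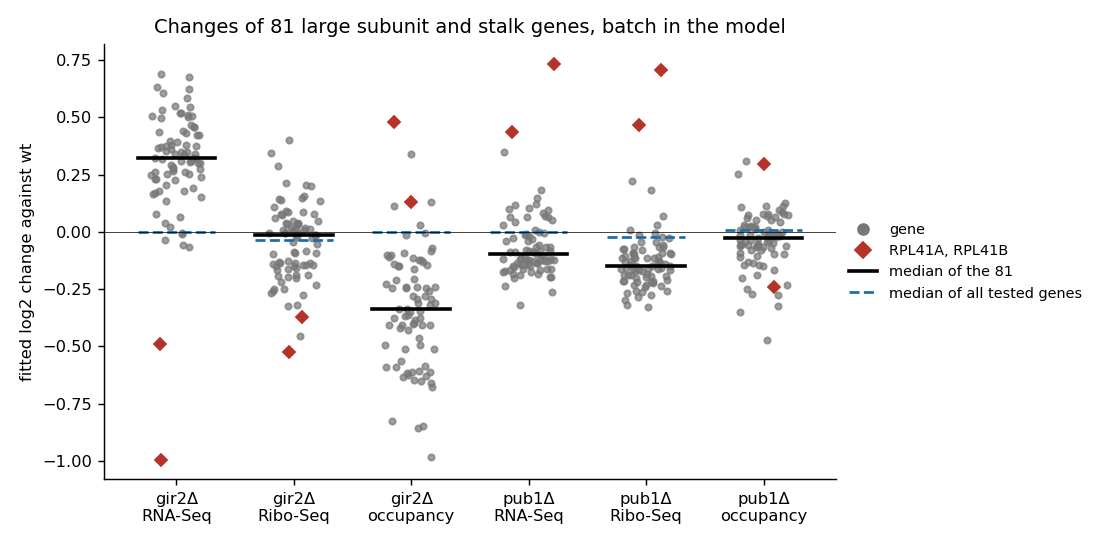
Fitted log2 change against wt (vertical axis) of the 81 genes in 6 comparisons, with batch in the model. Each point is a gene, diamonds are RPL41A and RPL41B, the solid line is the median of the 81 and the dashed line that of all tested genes. The median is 0.32 in gir2Δ RNA-Seq, -0.34 in gir2Δ occupancy and -0.15 in pub1Δ Ribo-Seq, and none of the genes was called.

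Between batches of wt, some of the 81 genes were called. These fits set 3 RNA-Seq or 2 Ribo-Seq libraries of batch 1 against 2 of batch 4. The strain changes rest on the few libraries named above, so the numbers of calls cannot be compared with those between strains. In wt RNA-Seq 30 of the 81 genes were called between batches 4 and 1 (37%, against 30.3% of tested genes), 28 higher in batch 4 (10.2%) and 2 lower (20.1%). The median change was 0.29 with 75 genes above 0. RPL16B (0.54, SE 0.13, adjusted p = 0.00315), RPL6B (0.53, SE 0.12, 0.00213) and RPL7A (0.48, SE 0.11, 0.00361) remained called by edgeR and DESeq2 in all 9 settings tried. RPL16B was at 2207, 2488 and 2056 normalised CPM in batch 1 (replicates 1, 4 and 5) and at 3238 and 3542 in batch 4. RPP0 was the 1 stalk gene called (0.42, SE 0.14, adjusted p = 0.0294). The number called fell to 8, 4 and 14 without wt replicate 1, 3 or 5 and was 49 without replicate 4.

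The genes lower in batch 4 were RPL41A (-1.64, SE 0.48, adjusted p = 0.0155) and RPL41B (-1.82, SE 0.44, 0.00451). Both calls were lost with DESeq2 and without wt replicate 2, and that of RPL41A also without replicate 3. In wt Ribo-Seq 9 of the 81 genes were called (11.1%, below the 31.1% of tested genes). Of these, 8 were higher (background 11.2%) and RPL37A was lower (-0.24, background 20%). RPL41A (1.02, SE 0.17, adjusted p = 0.00106) and RPL41B (0.99, SE 0.15, 0.000341) were here higher in batch 4, opposite to RNA-Seq, and with RPL5 (0.22) remained called in all 8 settings tried. The others were RPL35A (0.53), RPL35B (0.54), RPP1B (0.23), RPL12B (0.21) and RPP2A (0.19). The number called was 5, 17 and 3 without wt replicate 1, 2 or 4.

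The other genes of the pathway were 20 transcription factors, chaperones and assembly factors of the subunit, of which 19 were tested. None was called in the 6 strain comparisons. In wt batch 4 against 1, 11 were called higher in each assay (RNA-Seq 10.2% of tested genes, Ribo-Seq 11.2%), and none was called lower (20.1 and 20%), with medians of 0.43 in RNA-Seq and 0.47 in Ribo-Seq. They included SQT1, the chaperone of newly made Rpl10 (0.78 and 0.51), MRT4, which holds the place of P0 on the immature subunit (0.51 and 0.46), YVH1, which releases Mrt4 (0.77 and 0.95), and ARX1, an export factor of the pre-60S particle (0.74 and 1.06).

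The shortest genes varied most between libraries, and mainly in RNA-Seq. RPL41A was at 120, 41.6, 44.9, 34 and 230 normalised CPM in wt, at 257, 43.7, 41 and 66.7 in gir2Δ and at 96.5, 80.5, 38.5, 50.8 and 191 in pub1Δ RNA-Seq, a 7.55-fold range. RPL41B ranged 11.4-fold, RPL39 2.88-fold and RPL29 2.79-fold, and the other 77 genes 1.31-fold to 2.29-fold. The 3 libraries with the most RPL41A, wt replicate 5, gir2Δ replicate 1 and pub1Δ replicate 5, also had the most RPL41B, RPL29 and RPL39. The high and the low libraries were found in every strain, and in batch 1 both occurred.

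In Ribo-Seq RPL29 stayed between 1114 and 1474 normalised CPM and RPL39 between 1340 and 1743. RPL41A was at 228, 531, 334 and 196 in wt, at 126, 112, 143 and 147 in gir2Δ and at 437, 396, 302 and 346 in pub1Δ. All gir2Δ values lay below those of the other strains, and pub1Δ overlapped wt. RPL41B was at 188, 407, 293 and 164 in wt, at 117, 132, 127 and 136 in gir2Δ and at 322, 324, 244 and 243 in pub1Δ, with the same order. These 2 genes have 9 unique windows each inside the coding sequence, where windows that run past its ends were not considered. Neither difference passed the adjusted test.

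**Figure D5:**
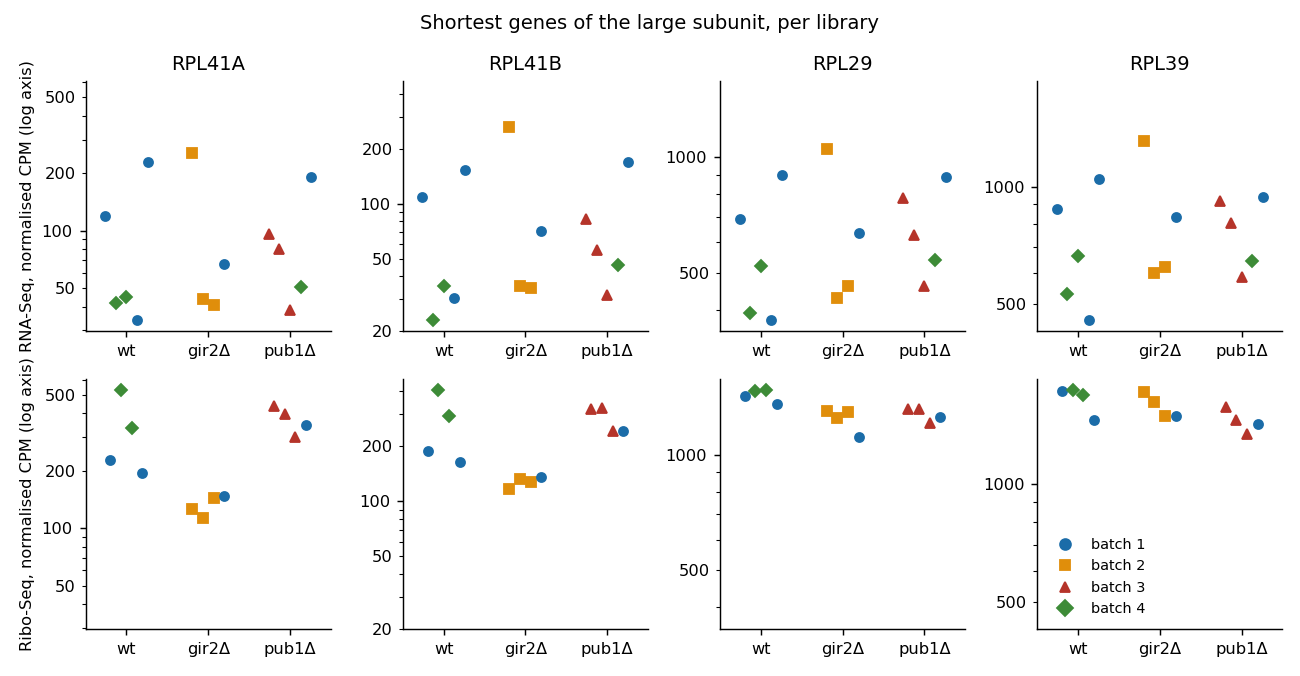
Normalised CPM (log axes) of RPL41A, RPL41B, RPL29 and RPL39 in each library by strain, RNA-Seq above and Ribo-Seq below, with the batch given by colour and shape. In RNA-Seq RPL41A spreads from 34 to 257 with high libraries in each strain, and in Ribo-Seq its 4 gir2Δ libraries lie between 112 and 147, below the rest.

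Length went with the difference between RNA-Seq libraries more widely than in these 4 genes. Across the 81 genes the wt difference between batch 4 and batch 1 had an r of 0.82 with log2 coding length (rank correlation 0.70), and 0.72 in the fitted changes of the 79 genes other than RPL41. Over the 4380 other tested genes r was -0.16, and 0.28 over the 633 of them under 600 coding bases. The pub1Δ minus wt difference had an r of -0.78 with length over the 81 genes in batch 1 and -0.77 in batch 4, with rank correlations of -0.63 and -0.61. Over the 4380 other tested genes r was -0.21 and -0.18, and over the 633 shorter ones -0.18 and -0.23. In the fitted pub1Δ changes of the 79 genes other than RPL41, r was -0.68. For gir2Δ minus wt in batch 1, r was 0.26 and the rank correlation -0.12, and r was -0.05 in the fitted changes without RPL41, so no direction is read from it. The genes share their libraries, so these are descriptions, and the part of length in the strain differences was not tested.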

How the data were processed

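The deposited values were raw counts of reads per gene. Per the labels and methods, the authors cut adapters with cutadapt 2.10, dropped Ribo-Seq duplicates by their random barcodes, discarded rRNA reads with Bowtie2 (listed as version 1.2.3) and counted uniquely mapped reads with STAR 2.7.9a against R64. Gene-sense counts were used here, and antisense counts over the 81 genes were 0.0320 to 0.372% of these in RNA-Seq. Symbols, coordinates and sequences came from RefSeq R64, to which 5956 of 7036 identifiers matched.

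Genes with 10 CPM or more in at least 4 libraries of each assay were kept (4473 of 6866 with any count). Counts were scaled with TMM factors, found within each assay for levels and single-assay fits and over all 26 libraries together for occupancy fits. They were tested with the quasi-likelihood test of edgeR 4.0.16 in R 4.3.3 with batch and strain as terms. Occupancy was the interaction of strain and assay over all 26 libraries, with batch by assay. The authors corrected for batch with ComBat-seq before their edgeR fits, and here a batch term was used in its place. DESeq2 1.42.0 and ComBat-seq (sva 3.50.0) were alternatives. So were other factors, no filter, other batch terms, the compared strains alone and each library left out. A block was a further alternative, of libraries from the same lysate for occupancy and of replicate numbers in the fits of a single assay. The code was tested on simulated data. Per-lysate occupancy and pair ratios used 0.5 added counts or CPM. Unique windows were 28 bases, exon junctions included.

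Lysates were split between the assays. RNA-Seq and Ribo-Seq libraries of the same strain, batch and replicate number (for pub1Δ of batch 1, strain and batch) were taken as one lysate, which the labels do not state. Their deviations from the group means correlated at 0.090 to 0.78. In wt, libraries of the same batch but different numbers correlated at 0.69 to 0.75, against 0.75 to 0.77 for the same number. The wt values thus do not set a shared lysate apart from a shared batch. In gir2Δ of batch 2 the same number gave 0.10 to 0.27 and different numbers -0.19 to 0.0019. In pub1Δ of batch 3 these were 0.30 to 0.37 and 0.14 to 0.23. Replicate numbers did not pair strains.

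Genes were named by a rule: each stalk gene, the 3 highest and lowest single-copy genes, called genes or the 3 largest changes in each direction, the 5 most and 3 least unequal pairs, genes under 50% unique windows and called pathway genes (examples are given). RPL37, RPL6 and RPL16 and the non-overlapping genes were named after their values were seen. The genes and lists were chosen with earlier results of these data known. Genes with near-identical copies have uncertain counts, and reads shared by copies were not analysed here.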

Additional observations from a re-analysis of the deposited data

Results flagged for a closer look

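In 60 groups of 4 or 5 libraries (the share of counts from the 81 genes, the 7 genes of the stalk and its base, RPL41A and RPL41B, by strain and assay), 5 held a library far from the others by Dixon's criterion, where chance flags about 1 in 20 groups. RPL41A and RPL41B were at 257 and 262 normalised CPM in gir2Δ RNA-Seq replicate 1, against 41 to 66.7 and 34.6 to 71.1 in the other gir2Δ libraries. RPP0 was at 4741 in pub1Δ RNA-Seq replicate 5, below the 5506 to 5767 of the others. RPP2B was at 3173 in wt RNA-Seq replicate 3, above 2435 to 2565. RPP1B was at 1580 in pub1Δ Ribo-Seq replicate 2, above 1323 to 1344.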

How the results depend on the processing

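The counts of calls moved most with the handling of batch. The authors used ComBat-seq, where a batch term was used here. After ComBat-seq, 63 of the 81 genes were called in gir2Δ RNA-Seq, 31 in gir2Δ Ribo-Seq, 48 in gir2Δ occupancy and, for pub1Δ, 2 in RNA-Seq, 31 in Ribo-Seq and none in occupancy, where 33.9, 25.4, 22.6, 11.0, 12.2 and 2.5% of tested genes were called. Without a batch term the median became 0.11 in gir2Δ RNA-Seq, -0.18 in gir2Δ occupancy, 0.22 in pub1Δ RNA-Seq (reversed) and -0.31 in pub1Δ occupancy. With batches 1 and 2 joined and 3 and 4 joined, the pub1Δ medians were 0.070 in RNA-Seq (reversed) and -0.22 in occupancy, and 5 genes were called in pub1Δ Ribo-Seq (1.68% of tested genes). With gir2Δ and wt alone, 9 were called in RNA-Seq (0.894%), and DESeq2 called 2 (0.469%). The block of libraries from the same lysate, used for occupancy alone, gave 2 calls in gir2Δ occupancy (0.246%) and none in pub1Δ occupancy. In the fits of a single assay the block was the replicate number, which does not pair strains, and it gave no call among the 81 genes. The causes were not tested.

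Leaving out 1 library at a time gave no call in any strain comparison. The medians ranged from 0.26 to 0.34 in gir2Δ RNA-Seq, -0.060 to -0.016 in gir2Δ Ribo-Seq, -0.36 to -0.32 in gir2Δ occupancy, -0.18 to -0.025 in pub1Δ RNA-Seq, -0.15 to -0.13 in pub1Δ Ribo-Seq and -0.11 to 0.040 in pub1Δ occupancy. In wt batch 4 against 1 the count ranged from 4 to 49 in RNA-Seq and from 3 to 17 in Ribo-Seq. Leaving out gir2Δ replicate 4, or pub1Δ Ribo-Seq replicate 4, could not be fitted with batch in the model. Depth limited RPL15B and RPL41 most, with 34 counts in the shallowest library.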
